A study of Homo sapiens with 39 samples.

Results

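The BCL2 family decides whether the outer membrane of the mitochondrion stays closed, and 10 of its genes are described here in C4-2B prostate cancer cells: BCL2, BCL2L1, MCL1, BCL2L11, BMF, BIK, PMAIP1, BID, BAD and BAK1. They were taken as a list of gene symbols with no threshold on a measured value, and each was found once among the 63187 genes of the table. C4-2B is a castration-resistant line derived from LNCaP cells, so every group is a culture of 1 cell line, grown in medium with serum, and no group lacks the line's own alterations. RNA was measured in 39 libraries of 13 groups, each with 3 replicates, in 2 experiments. In the panel, cells were kept for 5 days in DMSO alone, in an ARPi (abiraterone at 5 µM or enzalutamide at 20 µM), in a PARPi (1 µM of olaparib or 10 nM of talazoparib), or in one of the pairs abiraterone + olaparib and enzalutamide + talazoparib at those same doses. In the time course, cells received DMSO, olaparib 1 µM or olaparib 5 µM for 1 or 5 days. ARPi are inhibitors of the androgen receptor pathway, of which abiraterone blocks androgen synthesis and enzalutamide antagonizes the receptor, and PARPi inhibit poly (ADP-ribose) polymerase. The comparisons ask what each drug class changes alone and together, and how the olaparib response depends on dose and time.

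BCL2 family proteins fall into opposed groups. The survival proteins (BCL2, BCL-xL, encoded by BCL2L1, and MCL1) hold the effectors BAX and BAK (BAK1) inactive, and the effectors, once freed, oligomerize and open the mitochondrial membrane so that cytochrome c escapes and caspases are activated. BH3-only proteins are the sensors that start this: BIM (BCL2L11), BMF, BIK, NOXA (PMAIP1), BID and BAD occupy the groove of survival proteins, and BIM and BID can also engage the effectors directly. Much of their control in cells lies in protein turnover, cleavage and phosphorylation, which RNA does not show.

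Totals per library lay between 26932205 and 49833473 counts, and replicates of a group differed by more than sampling of reads alone. In bulk RNA, fewer cells of a kind and less RNA per cell cannot be told apart. The 10 luminal prostate markers summed to between 2846 and 5571 CPM (counts scaled by library size) in a library. Markers of other cell types were low but not all silent. At most 3 counts in every library were held by 3 of 5 fibroblast markers (DCN, LUM and PDGFRA), 1 of 4 endothelial markers (KDR), 2 of 3 basal markers (KRT5 and TP63), 2 of 5 neuroendocrine markers (CHGA and INSM1) and, among the haematopoietic markers, CD3E. The lists summed to 10.7 to 22.9 CPM per library for fibroblasts, with COL1A1 the most abundant, 7.74 to 22.7 CPM for endothelium, with VWF the most abundant, and 2.94 to 31.1 CPM for haematopoietic cells, of which 3 of 5 markers passed 1 CPM in some library. Basal markers summed to 0 to 1.94 CPM and neuroendocrine markers to 1.05 to 2.85 CPM. Some moved with treatment. COL1A1 rose with all 6 panel treatments (by 0.68 ± 0.07 with abiraterone, log2, SE), and CD68, a lysosomal gene of macrophages, stood at 5.90 CPM in DMSO and 28.4 CPM with 5 µM olaparib on day 5. PTPRC, the pan-leukocyte antigen CD45, had a group mean of 0.0253 CPM in panel DMSO and 1.00 CPM with enzalutamide + talazoparib. These markers were named after their values were seen, and their part in the results was not tested. Genes known to follow the drugs moved too: against DMSO in the panel, KLK3 fell by 1.58 ± 0.05 (log2, SE) with abiraterone and fell by 2.25 ± 0.05 with enzalutamide, TMPRSS2 fell by 2.45 ± 0.08 and fell by 2.80 ± 0.08, and CDKN1A rose by 2.18 ± 0.05 with olaparib and by 1.98 ± 0.05 with talazoparib.

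The genes lie on different chromosomes of GRCh38 except BCL2 and PMAIP1, both on chromosome 18, and BIK and BID, both on chromosome 22. BCL2 spans 63123346 to 63320128 on the minus strand of chromosome 18 and PMAIP1 spans 59899996 to 59904305 on its plus strand. BCL2L11 spans 111119378 to 111168444 on the plus strand of chromosome 2, and BMF spans 40087890 to 40108892 on the minus strand of chromosome 15. BIK spans 43110750 to 43129712 on the plus strand of chromosome 22, BID spans 17734138 to 17774770 on its minus strand, and BCL2L1 spans 31664452 to 31723989 on the minus strand of chromosome 20. Only BIK and PMAIP1 share no base with another annotated gene. MCL1 overlaps 3 genes on its own strand, BCL2 and BID 1 each, and BCL2L1, BCL2L11, BMF, BAD and BAK1 overlap genes on the other strand only. The study's methods describe stranded libraries, which can tell the strands apart. Whether the counting used strand is not given in the sources used here, so reads of these partners may be in their values. BAK1 has 2 annotated processed pseudogenes, which held between 0 and 4 counts in a library.

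Promoter sequence from RefSeq (GRCh38.p14) was matched for 4 of the 10 genes: BCL2, BCL2L11, PMAIP1 and BAK1. The 250 bases before the RefSeq start of BCL2L11 and PMAIP1 are shown because both are BH3-only genes and moved in opposite directions under PARPi after 5 days. The BCL2L11 stretch is chr2:111120664-111120913 and the PMAIP1 stretch chr18:59899746-59899995, both on the plus strand, read 5′ to 3′. Of the same window, all 250 bases for BCL2 and 17 for BAK1 lie in exons of the GENCODE annotation, and none for BCL2L11 or PMAIP1. The BCL2L11 stretch lies inside the span annotated for that gene, since other transcripts start further upstream. Capitals mark the match to the FOXO motif GTAAACA.
BCL2L11: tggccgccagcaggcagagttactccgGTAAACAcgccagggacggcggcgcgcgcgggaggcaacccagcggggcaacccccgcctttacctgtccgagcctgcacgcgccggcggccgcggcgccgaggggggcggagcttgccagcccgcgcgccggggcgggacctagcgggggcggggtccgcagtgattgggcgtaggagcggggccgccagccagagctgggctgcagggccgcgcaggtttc
PMAIP1: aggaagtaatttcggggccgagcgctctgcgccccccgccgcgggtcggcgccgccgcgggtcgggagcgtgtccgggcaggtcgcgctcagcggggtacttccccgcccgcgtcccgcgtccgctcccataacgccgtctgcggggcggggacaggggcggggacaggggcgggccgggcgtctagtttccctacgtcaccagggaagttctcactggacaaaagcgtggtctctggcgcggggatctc

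Both stretches were rich in G and C, 76.8% for BCL2L11 and 72.8% for PMAIP1, against a median of 58.0% over the 35116 promoters of the same length. Motifs were searched on both strands. The FOXO motif stood in the BCL2L11 stretch, starting 223 bases before that RefSeq start, and 2.98% of all promoters hold it. The GC box GGGCGG, bound by Sp family factors, occurred 3 times in BCL2L11, 4 times in PMAIP1 and 2 times in BAK1, and 42.6% of all promoters hold at least 1. The p53 half-site matched once in BAK1, 73 bases before the start, and not in BCL2, BCL2L11 or PMAIP1, and 5.57% of all promoters hold a match. Neither the androgen receptor half-site AGAACA (12.4% of all promoters) nor the TATA box TATAAA (10.7%) matched in any of the 4. A match is a string of letters and says nothing on binding in these cells.

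Levels of different genes were compared per length, as CPM per kilobase of the canonical transcript. In the panel's DMSO libraries MCL1 stood at 45.2 ± 1.0 (SD, n = 3) and BCL2L1 at 41.6 ± 0.45 CPM per kilobase, followed by BAD at 18.2 ± 0.35, BAK1 at 11.4 ± 0.24 and BID at 7.56 ± 0.13. BCL2L11 stood at 5.81 ± 0.10, PMAIP1 at 4.94 ± 0.14, BIK at 4.05 ± 0.38, BMF at 1.42 ± 0.24 and BCL2 at 0.415 ± 0.09. In these 3 libraries no neighbours in that order overlapped in their range. BCL2 was the lowest of the 10 in 13 of 13 groups, BAD the third in 13, and MCL1 the highest in 12. The exception was olaparib 5 µM on day 5, where BCL2L1 stood at 66 ± 2.3 and MCL1 at 53.4 ± 0.96. In DMSO of day 5 in the time course, BCL2L11 (5.94 ± 0.036), BIK (5.78 ± 0.40) and PMAIP1 (5.62 ± 0.78) did not differ beyond their spread. BCL2 rested on 30 to 232 counts per library, the least of the 10, and MCL1 on 5114 to 10690.

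Against DMSO in the panel, the BH3-only genes BMF, BIK, BCL2L11 and BID rose with every treatment, while BAK1 fell in the 4 treatments with an ARPi and PMAIP1 fell with abiraterone, both PARPi and both combinations. With abiraterone, 9 of the 10 genes passed the threshold (adjusted p under 0.05, edgeR), 7 higher and 2 lower, where 52.9% of the 18625 genes tested passed (25.8% higher, 27.1% lower). With enzalutamide, 8 passed, 7 of them higher, against 53.3% of all genes (27% higher, 26.3% lower). With olaparib, 8 passed, 6 higher, against 35.6% (19.6% higher, 16% lower), and with talazoparib 7 passed, 5 higher, against 33.8% (18.4% higher, 15.4% lower). With abiraterone + olaparib 9 passed, 7 higher, against 62.2% (31.1% higher, 31.1% lower), and with enzalutamide + talazoparib 9 passed, 7 higher, against 62.4% (31.2% higher, 31.3% lower). With 33.8% to 62.4% of all genes past the threshold, the count says little about the family, and the sizes carry the description.

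**Figure D1:**
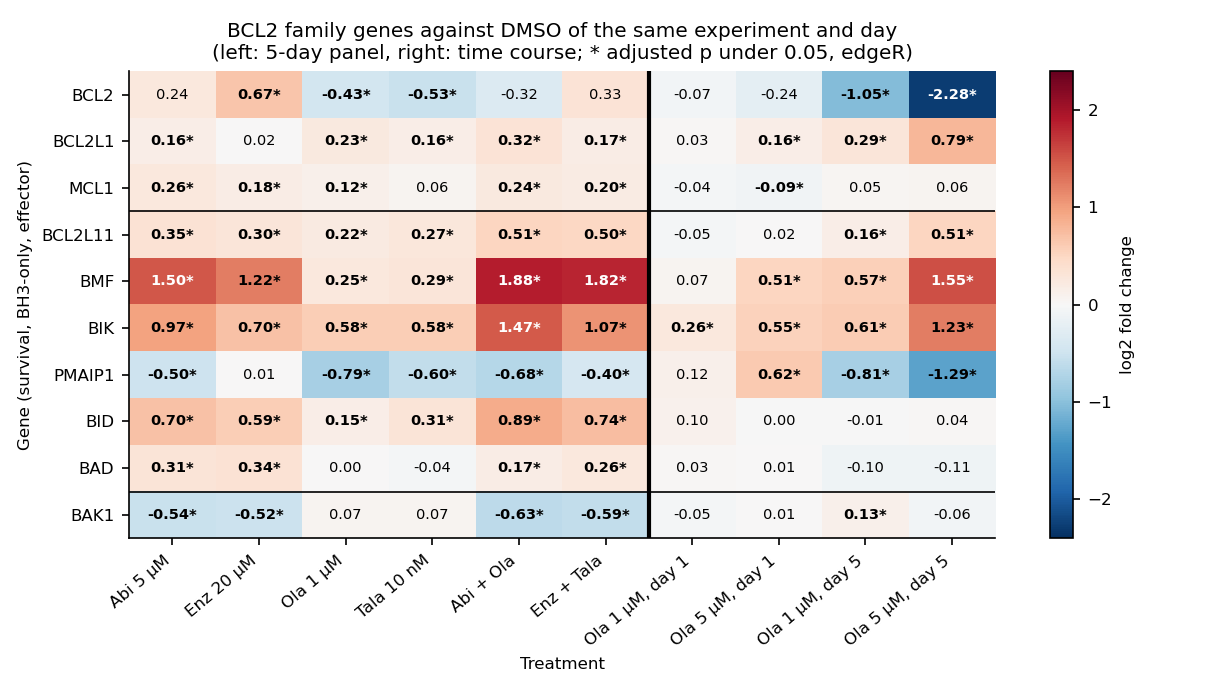
Log2 fold change of each of the 10 genes (rows, ordered as survival, BH3-only and effector) against DMSO of the same experiment and day for the 10 treated groups (columns, the panel left of the line, the time course right of it), where an asterisk marks an adjusted p under 0.05 by edgeR. BMF is the strongest rise in the ARPi columns (1.5 with abiraterone, 1.88 with abiraterone + olaparib) and BCL2 the strongest fall at 5 µM olaparib on day 5 (-2.28).

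Of the survival genes, BCL2 was raised by enzalutamide and lowered by PARPi. Its level in the panel was 2.21, 2.91 and 3.44 CPM in the DMSO libraries, 4.27, 4.84 and 4.55 with enzalutamide, 2.37, 1.84 and 2.18 with olaparib and 2.07, 1.96 and 1.93 with talazoparib. All enzalutamide libraries lay above the DMSO range, all talazoparib libraries lay below it, and olaparib overlapped with DMSO. The change was 0.67 ± 0.16 with enzalutamide (log2, SE; adjusted p = 0.000594), -0.43 ± 0.17 with olaparib (adjusted p = 0.0432) and -0.53 ± 0.17 with talazoparib (adjusted p = 0.0124). BCL2 with abiraterone (3.11, 3.75 and 3.36 CPM; 0.24 ± 0.16, adjusted p = 0.218) did not pass.

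BCL2 in the panel depended on the DMSO libraries, which spread more for it, relative to the mean (2.85 ± 0.62 CPM, SD), than for any other member. Without DMSO replicate C the change was -0.27 (adjusted p = 0.290) with olaparib and -0.37 (adjusted p = 0.136) with talazoparib. The olaparib call was also lost without DMSO replicate B (-0.42, adjusted p = 0.0918), olaparib replicate B (-0.34, adjusted p = 0.180) or olaparib replicate C (-0.45, adjusted p = 0.0739). No filter on low counts (-0.43, adjusted p = 0.0766) and a fit of the compared groups alone (-0.45, adjusted p = 0.0752) lost it too.

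BCL2L1, whose long isoform BCL-xL restrains BAX and BAK, rose modestly and with little spread. It stood at 107, 108 and 106 CPM in panel DMSO, 125, 125 and 126 with olaparib, 122, 117 and 121 with abiraterone and 132, 135 and 133 with abiraterone + olaparib. Each of these groups lay above every DMSO library. The log2 changes were 0.23 ± 0.03 with olaparib (adjusted p = 1.14e-07), 0.16 ± 0.03 with talazoparib (adjusted p = 9.04e-05), 0.16 ± 0.03 with abiraterone (adjusted p = 2.12e-05) and 0.32 ± 0.03 with abiraterone + olaparib (adjusted p = 1.81e-11). With enzalutamide the difference was 0.02 ± 0.03 (adjusted p = 0.641), which passed only with total count scaling (0.07, adjusted p = 0.0485).

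MCL1, a short-lived survival protein that NOXA binds, had the narrowest range of group means among the 10 (0.29 on the log2 scale over 13 groups), though other members changed less in single comparisons. Its 3 panel DMSO libraries held 174, 181 and 181 CPM and its abiraterone libraries 218, 210 and 213 CPM, with no overlap. MCL1 rose by 0.26 ± 0.03 with abiraterone (adjusted p = 3.17e-09), 0.18 ± 0.03 with enzalutamide (adjusted p = 4.50e-06) and 0.12 ± 0.03 with olaparib (adjusted p = 0.0012), and the difference was 0.06 ± 0.03 with talazoparib (adjusted p = 0.114). Summed over the 3 survival genes, the level was 87.1 ± 1.30 CPM per kilobase in DMSO, 101 ± 1.98 with abiraterone and 106 ± 1.96 with abiraterone + olaparib.

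**Figure D2:**
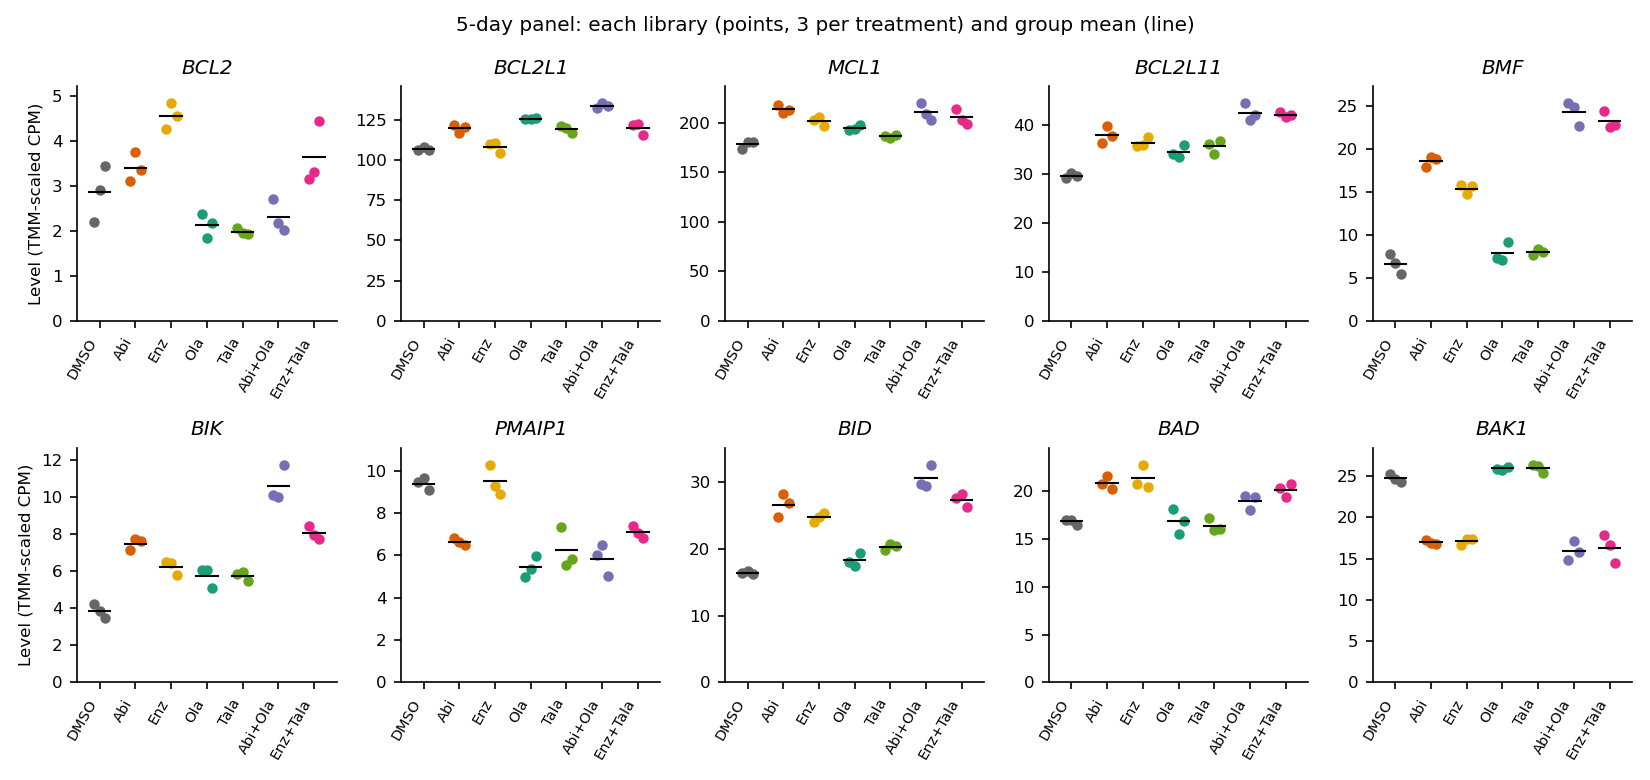
Level of each gene in TMM-scaled CPM (vertical axes from 0) in the 21 panel libraries, where points are libraries, 3 per treatment, and lines are group means. BMF sits between 5.5 and 7.78 CPM in DMSO and between 22.7 and 25.3 CPM with abiraterone + olaparib, while BAK1 sits between 24.3 and 25.3 CPM in DMSO and between 16.8 and 17.3 CPM with abiraterone.

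Among the BH3-only genes, BMF, which is held at the cytoskeleton in attached cells, had the largest change. It stood at 7.78, 6.69 and 5.5 CPM in panel DMSO, 17.9, 19.0 and 18.9 with abiraterone and 15.8, 14.7 and 15.7 with enzalutamide. With abiraterone + olaparib it reached 25.3, 24.9 and 22.7 CPM and with enzalutamide + talazoparib 24.5, 22.6 and 22.8 CPM. The ARPi groups lay far above every DMSO library and the combinations above every single-agent library. BMF rose by 1.5 ± 0.09 with abiraterone (adjusted p = 7.06e-16), 1.22 ± 0.09 with enzalutamide (adjusted p = 1.63e-13), 1.88 ± 0.09 with abiraterone + olaparib (adjusted p = 4.72e-19) and 1.82 ± 0.09 with enzalutamide + talazoparib (adjusted p = 8.97e-19).

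With PARPi alone BMF overlapped with DMSO: olaparib gave 7.29, 7.12 and 9.19 CPM and talazoparib 7.64, 8.39 and 8.06 CPM. The log2 change was 0.25 ± 0.10 with olaparib (adjusted p = 0.0439) and 0.29 ± 0.10 with talazoparib (adjusted p = 0.0212). Both calls were lost without DMSO replicate C (0.12, adjusted p = 0.385, and 0.16, adjusted p = 0.260) and with total count scaling (0.21, adjusted p = 0.0934, and 0.24, adjusted p = 0.0540). The olaparib call for BMF was also lost without DMSO replicate B (0.27, adjusted p = 0.0790) or olaparib replicate C (0.13, adjusted p = 0.373) and the talazoparib call without talazoparib replicate B (0.24, adjusted p = 0.105) or C (0.27, adjusted p = 0.0671). In all, 9 of 21 fits that left out a library lost the olaparib call, some of them without a library of another treatment. Fits of the compared groups alone lost both calls (0.23, adjusted p = 0.208, and 0.27, adjusted p = 0.0964).

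BIK, a BH3-only protein of the endoplasmic reticulum, rose with each treatment and without overlap with DMSO. Its level was 4.21, 3.84 and 3.50 CPM in panel DMSO, 7.15, 7.72 and 7.61 with abiraterone, 6.06, 6.04 and 5.10 with olaparib and 10.1, 10.0 and 11.7 with abiraterone + olaparib. The change was 0.97 ± 0.10 for abiraterone (adjusted p = 5.43e-10), 0.70 ± 0.10 for enzalutamide (adjusted p = 4.65e-07), 0.58 ± 0.10 for olaparib (adjusted p = 2.77e-05) and 0.58 ± 0.10 for talazoparib (adjusted p = 2.61e-05). It was 1.47 ± 0.10 with abiraterone + olaparib (adjusted p = 5.36e-15) and 1.07 ± 0.10 with enzalutamide + talazoparib (adjusted p = 1.86e-11).

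BID, which caspase-8 cleaves to link death receptors with mitochondria, followed the ARPi. It stood at 16.3, 16.8 and 16.3 CPM in panel DMSO, 24.8, 28.3 and 26.9 with abiraterone and 24.1, 24.8 and 25.4 with enzalutamide. The ARPi libraries did not overlap with DMSO, and BID rose by 0.70 ± 0.06 (adjusted p = 1.44e-12) and 0.59 ± 0.06 (adjusted p = 6.61e-11). With PARPi it rose by 0.15 ± 0.06 (olaparib, adjusted p = 0.0404) and 0.31 ± 0.06 (talazoparib, adjusted p = 6.54e-05). The olaparib value for BID was no longer past the threshold without any 1 of the DMSO libraries (A 0.15, adjusted p = 0.0809, B 0.17, adjusted p = 0.0581, C 0.15, adjusted p = 0.105) or olaparib replicate A (0.17, adjusted p = 0.0609) or C (0.11, adjusted p = 0.215), nor with total count scaling (0.11, adjusted p = 0.143). In all, 8 of 21 fits that left out a library lost it. So did no filter on low counts (0.16, adjusted p = 0.0513) and a fit of the compared groups alone (0.14, adjusted p = 0.108).

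BCL2L11, whose product BIM binds all the survival proteins, rose in every panel treatment. It stood at 29.1, 30.2 and 29.6 CPM in DMSO, 36.2, 39.8 and 37.8 with abiraterone, 34.1, 33.4 and 35.8 with olaparib and 42.5, 41.6 and 42 with enzalutamide + talazoparib, all above the DMSO range. The log2 change was 0.35 ± 0.05 under abiraterone (adjusted p = 4.33e-08), 0.30 ± 0.05 under enzalutamide (adjusted p = 1.20e-06), 0.22 ± 0.05 under olaparib (adjusted p = 0.000273) and 0.27 ± 0.05 under talazoparib (adjusted p = 1.63e-05). It reached 0.51 ± 0.05 with abiraterone + olaparib (adjusted p = 5.07e-12) and 0.50 ± 0.04 with enzalutamide + talazoparib (adjusted p = 5.01e-12).

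PMAIP1, which encodes NOXA and is a known p53 target, was the 1 of the 6 BH3-only genes that fell in the panel, with every treatment except enzalutamide alone. It stood at 9.44, 9.63 and 9.09 CPM in panel DMSO, 4.98, 5.36 and 5.96 with olaparib, 7.32, 5.53 and 5.83 with talazoparib and 6.80, 6.64 and 6.47 with abiraterone, below every DMSO library. With enzalutamide (10.3, 9.29 and 8.91 CPM) it overlapped with DMSO. PMAIP1 fell by 0.79 ± 0.10 with olaparib (adjusted p = 1.34e-07), by 0.60 ± 0.10 with talazoparib (adjusted p = 1.36e-05) and by 0.50 ± 0.10 with abiraterone (adjusted p = 8.97e-05), and the difference with enzalutamide was 0.01 ± 0.10 (adjusted p = 0.929).

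BAD, a BH3-only protein that survival kinases keep phosphorylated and bound to 14-3-3 proteins, rose with both ARPi. Its level was 17.0, 17.1 and 16.5 CPM in panel DMSO, 20.7, 21.7 and 20.3 with abiraterone and 20.8, 22.8 and 20.5 with enzalutamide. That was a rise of 0.31 ± 0.06 (adjusted p = 6.23e-05) and 0.34 ± 0.06 (adjusted p = 1.07e-05) with no overlap. With PARPi the differences were 0.00 ± 0.06 (olaparib, adjusted p = 0.985) and -0.04 ± 0.06 (talazoparib, adjusted p = 0.675).

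The sum over the 6 BH3-only genes was 41.9 ± 1.11 CPM per kilobase in panel DMSO (SD, n = 3), 57.5 ± 2.07 under abiraterone, 56.3 ± 1.29 under enzalutamide, 43.9 ± 1.61 under olaparib and 45 ± 1.18 under talazoparib. It was 62.3 ± 1.84 with abiraterone + olaparib and 59.7 ± 1.09 with enzalutamide + talazoparib. The ARPi groups did not overlap with DMSO, and BAD, the most abundant of the 6, makes up a large share of the sum.

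BAK1, the effector resident at the mitochondrial membrane, fell with ARPi. It stood at 25.3, 24.6 and 24.3 CPM in panel DMSO, 17.3, 16.9 and 16.8 with abiraterone, 16.7, 17.4 and 17.4 with enzalutamide and 25.9, 25.8 and 26.2 with olaparib. BAK1 fell by 0.54 ± 0.06 with abiraterone (adjusted p = 2.61e-09), by 0.52 ± 0.06 with enzalutamide (adjusted p = 3.31e-09), by 0.63 ± 0.06 with abiraterone + olaparib (adjusted p = 5.53e-11) and by 0.59 ± 0.06 with enzalutamide + talazoparib (adjusted p = 1.31e-10). With PARPi alone the difference was 0.07 ± 0.06 for each (adjusted p = 0.374 and 0.357).

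The effectors outside the list moved differently from BAK1. BAX, the cytosolic effector, rose by 0.21 ± 0.06 with abiraterone (adjusted p = 0.0033), 0.15 ± 0.06 with enzalutamide (adjusted p = 0.032), 0.56 ± 0.06 under olaparib (adjusted p = 1.3e-09) and 0.40 ± 0.06 under talazoparib (adjusted p = 1.4e-06). BOK, a related effector, rose in the same 4 comparisons by 0.43 ± 0.06, 0.22 ± 0.06, 0.42 ± 0.06 and 0.43 ± 0.06. BCL2L2, which encodes the survival protein BCL-w, fell with all 6 panel treatments, by 0.17 ± 0.05 with olaparib up to 0.43 ± 0.05 with abiraterone + olaparib. BCL2A1 and BCL2L10 were too low to test. Of 4 other BH3-only or BH3-like genes, HRK was too low to test. BBC3, which encodes the p53 target PUMA, and BNIP3 and BNIP3L, mitophagy receptors, all rose with both PARPi, BBC3 by 1.26 ± 0.16 with olaparib and 0.93 ± 0.16 with talazoparib, and BNIP3 fell with all 4 treatments containing an ARPi.

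Further genes of the pathway were read from lists. Of 15 p53 death and arrest targets, to which PMAIP1 was not assigned and of which BAX, BBC3, FAS and TNFRSF10B stand also in the other lists, 14 rose and 1 fell with olaparib (median log2 change 0.71, against 0.02 over all genes tested), and 13 rose and 0 fell with talazoparib (median 0.55, against 0.02). With abiraterone 8 rose and 3 fell, and with enzalutamide 9 rose and 5 fell. FAS, a death receptor, rose by 1.32 ± 0.11 with talazoparib up to 2.55 ± 0.10 with abiraterone + olaparib in the PARPi-containing groups, and by 1.17 ± 0.11 with abiraterone and 1.28 ± 0.11 with enzalutamide. Of 12 death receptors and adaptors, 5 rose and 3 fell with abiraterone, 4 and 4 with enzalutamide, 4 and 1 with olaparib and 4 and 0 with talazoparib. Their median changes were 0.13, -0.09, 0.03 and 0.01, and 52.9%, 53.3%, 35.6% and 33.8% of all genes passed in those 4 comparisons, so the list's counts lie near the shares of all genes.

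The counts of the next lists are read against 25.8% of all genes higher and 27.1% lower with abiraterone, 27% and 26.3% with enzalutamide, 19.6% and 16% with olaparib, and 18.4% and 15.4% with talazoparib, with medians over all genes of 0.00, 0.02, 0.02 and 0.02. Downstream of the mitochondrion, 7 of 8 caspases tested rose with abiraterone and 6 with enzalutamide, with none lower (median changes 0.36 and 0.26), and CASP9, the caspase of the apoptosome, rose by 0.48 ± 0.11 with abiraterone, 0.42 ± 0.11 with olaparib and 0.62 ± 0.10 with talazoparib. With olaparib 2 caspases rose and 2 fell, and with talazoparib 2 rose and 1 fell (medians 0.01 and 0.03). Of 9 genes of the apoptosome and of mitochondrial release, 6 fell with abiraterone and 7 fell and 1 rose with enzalutamide (medians -0.18 and -0.23). CYCS, which encodes cytochrome c, fell by 0.48 ± 0.03 with abiraterone and by 0.58 ± 0.03 with enzalutamide. With olaparib 2 of the 9 rose and 3 fell, and with talazoparib 4 rose and 3 fell (medians 0.00 for both). Inhibitors of apoptosis split (2 higher and 3 lower of 6 with abiraterone, 3 and 2 with enzalutamide, 1 and 2 with each PARPi, medians between -0.13 and 0.07), and BIRC5, which encodes survivin and follows the cell cycle, fell by 0.44 ± 0.03 with olaparib and by 0.42 ± 0.03 with talazoparib. Of 6 tested enzymes that add or remove ubiquitin on MCL1 protein, 2 fell with abiraterone, 1 with olaparib and 4 with talazoparib (medians -0.14, -0.07 and -0.19), and none passed with enzalutamide. Among 10 FOXO and stress regulators of BH3-only genes, 2 rose and 4 fell with abiraterone, 5 and 3 with enzalutamide, and 3 and 5 with each PARPi (medians -0.14, 0.08, -0.18 with olaparib and -0.31 with talazoparib). Of these, FOXO1 fell by 1.13 ± 0.13 with abiraterone and by 0.62 ± 0.12 with enzalutamide, and ATF4, which drives stress-induced PMAIP1, fell by 0.72 ± 0.03 with olaparib.

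What the second drug added was tested against each single agent. Adding olaparib to abiraterone changed 6 of the 10 genes, 5 higher, where 29.2% of all genes passed. BMF rose by a further 0.39 ± 0.08 (adjusted p = 0.000251), BIK by 0.50 ± 0.09 (adjusted p = 8.27e-05), BCL2L1 by 0.16 ± 0.03 (adjusted p = 9.59e-05), BID by 0.20 ± 0.05 (adjusted p = 0.00542) and BCL2L11 by 0.16 ± 0.04 (adjusted p = 0.00625), and BCL2 fell by 0.56 ± 0.17 (adjusted p = 0.00965). BCL2L11 lost its call without replicate A of abiraterone (0.13, adjusted p = 0.0598) or of the combination (0.13, adjusted p = 0.0574), BID without abiraterone A (0.15, adjusted p = 0.0649) or combination C (0.15, adjusted p = 0.0550), and BCL2 without abiraterone B (-0.49, adjusted p = 0.0501) or combination C (-0.49, adjusted p = 0.0527). BAD had no call but passed with total count scaling (-0.16, adjusted p = 0.0432).

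Adding abiraterone to olaparib changed 8 genes, 7 higher, against 56.6% of all genes. BMF rose by 1.63 ± 0.09 (adjusted p = 1.32e-17), BIK by 0.88 ± 0.10 (adjusted p = 6.45e-10) and BID by 0.74 ± 0.06 (adjusted p = 1.18e-13), and BAK1 fell by 0.70 ± 0.06 (adjusted p = 4.26e-12). BAD rose by 0.17 ± 0.06 (adjusted p = 0.0200) and lost its call without olaparib replicate B (0.12, adjusted p = 0.148) or combination replicate A (0.15, adjusted p = 0.0766) or C (0.15, adjusted p = 0.0608). Against DMSO, the rise of BAD with the combination (0.17 ± 0.06, adjusted p = 0.0174) was lost without DMSO replicate C (0.15, adjusted p = 0.0612) or combination replicate A (0.15, adjusted p = 0.0677) or C (0.16, adjusted p = 0.0535).

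Adding talazoparib to enzalutamide changed 6 genes, 5 higher, against 34.4% of all genes. BMF rose by 0.60 ± 0.08 (adjusted p = 2.02e-07), BIK by 0.37 ± 0.09 (adjusted p = 0.00218), BCL2L11 by 0.21 ± 0.04 (adjusted p = 0.000243) and BCL2L1 by 0.15 ± 0.03 (adjusted p = 0.00013), and PMAIP1 fell by 0.42 ± 0.10 (adjusted p = 0.00114). BID rose by 0.14 ± 0.05 (adjusted p = 0.0342), a call lost without replicate A or B of enzalutamide (0.13, adjusted p = 0.113, and 0.14, adjusted p = 0.0761) or of the combination (0.14, adjusted p = 0.0898, and 0.12, adjusted p = 0.130). BCL2 passed only without combination replicate C (-0.50, adjusted p = 0.0232, against -0.33 ± 0.16, adjusted p = 0.0962, with all libraries).

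Adding enzalutamide to talazoparib changed 8 genes, 7 higher, against 58.8% of all genes. BMF rose by 1.54 ± 0.08 (adjusted p = 2.64e-17), BCL2 by 0.87 ± 0.16 (adjusted p = 2.40e-05) and BID by 0.43 ± 0.05 (adjusted p = 1.94e-08), and BAK1 fell by 0.66 ± 0.06 (adjusted p = 5.5e-12). PMAIP1 (0.19 ± 0.10, adjusted p = 0.102) passed only without talazoparib replicate A (0.32, adjusted p = 0.0101) or with total count scaling (0.27, adjusted p = 0.0215). BCL2L1, also without a call, passed with total count scaling (0.09, adjusted p = 0.00688) and with a filter of 10 CPM in 3 libraries (0.06, adjusted p = 0.0459).

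BCL2 passed against DMSO in neither combination. With abiraterone + olaparib it stood at 2.70, 2.17 and 2.03 CPM (-0.32 ± 0.17, adjusted p = 0.0988) and with enzalutamide + talazoparib at 3.16, 3.30 and 4.45 CPM (0.33 ± 0.16, adjusted p = 0.0710), both overlapping with DMSO. The first passed without DMSO replicate A (-0.47, adjusted p = 0.0202) or combination replicate A (-0.45, adjusted p = 0.0390), and the second without DMSO replicate C (0.49, adjusted p = 0.0176) or combination replicate A (0.43, adjusted p = 0.0385) and with total count scaling (0.37, adjusted p = 0.0466).

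Whether a combination departed from the sum of its drugs on the log2 scale was tested by an interaction term. For abiraterone and olaparib, 2 of the 10 genes passed, against 12.8% of all genes. PMAIP1 departed by 0.61 ± 0.15 (adjusted p = 0.00477): the 3 combination libraries (5.99, 6.50 and 5.00 CPM) overlapped with olaparib alone (4.98 to 5.96 CPM), where adding both falls would have put them lower. MCL1 departed by -0.14 ± 0.04 (adjusted p = 0.0195), with the combination at 219, 209 and 203 CPM beside 210 to 218 CPM with abiraterone alone. MCL1 was no longer past the threshold without DMSO A (-0.13, adjusted p = 0.0508), abiraterone A (-0.13, adjusted p = 0.0610), olaparib C (-0.13, adjusted p = 0.0564) or combination C (-0.12, adjusted p = 0.0686).

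For enzalutamide and talazoparib, 0 of the 10 genes passed by edgeR and 0 by DESeq2, against 12.6% of all genes, and 2 (BMF and BID) had an unadjusted p under 0.05. The BMF interaction was 0.31 with a 95% confidence interval of 0.06 to 0.57 (adjusted p = 0.101), and without DMSO replicate C it was 0.44 (adjusted p = 0.0150). For BMF with abiraterone and olaparib the interval was -0.12 to 0.39, for BIK -0.37 to 0.20, and for BCL2 -0.62 to 0.35.

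**Figure D3:**
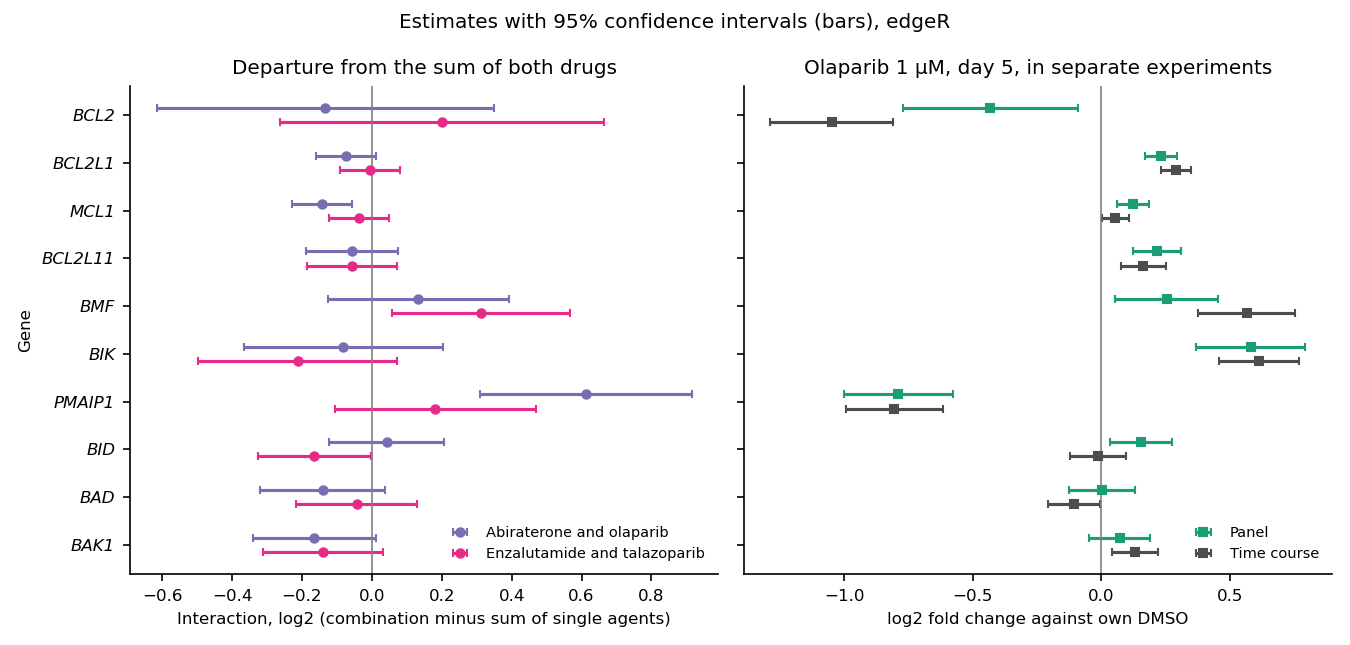
Left, interaction estimate of each gene on the log2 scale (points) with its 95% confidence interval (bars) for both drug pairs in the panel, where 0 means that the combination equals the sum of its drugs. Right, log2 fold change of olaparib 1 µM against DMSO on day 5 in the panel and in the time course, with the same kind of bars. PMAIP1 stands right of 0 for abiraterone and olaparib (0.61), and BCL2 differs most between the experiments (-0.43 in the panel and -1.05 in the time course).

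In the time course, BCL2, BCL2L1, BMF, BIK and PMAIP1 differed most from DMSO at 5 µM on day 5, BCL2 and PMAIP1 lower and the others higher. At 1 µM on day 1 BIK alone of the 10 passed, against 15.8% of the 18502 genes tested (6.30% higher, 9.52% lower). It rose by 0.26 ± 0.08 (adjusted p = 0.0274, 4.21, 4.2 and 4.39 CPM in DMSO and 5.18, 5.04 and 5.13 with olaparib), did not overlap, and was lost with DESeq2 (0.26, adjusted p = 0.0658) and without DMSO replicate 1 (0.25, adjusted p = 0.0814) or 2 (0.25, adjusted p = 0.0743) or olaparib replicate 1 (0.25, adjusted p = 0.0728) or 3 (0.26, adjusted p = 0.0698). At 5 µM on day 1, 5 genes passed, 4 higher, against 45% of all genes (21.6% higher, 23.4% lower). At 1 µM on day 5, 7 passed, 5 higher, against 46.3% (23.4% higher, 22.9% lower), and at 5 µM on day 5, 6 passed, 4 higher, against 68.2% (34.4% higher, 33.9% lower). As in the panel, these counts say little about the family beside such shares.

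PMAIP1 turned from a rise to a fall between the days. On day 1 its level was 9.72, 10.5 and 8.66 CPM in DMSO and 14.8, 13.5 and 16.2 CPM with 5 µM olaparib, a rise of 0.62 ± 0.08 (adjusted p = 3.28e-07). On day 5 it was 9.89, 12.4 and 9.73 CPM in DMSO, 6.03, 6.04 and 6.17 with 1 µM and 4.17, 4.83 and 4.02 with 5 µM, a fall by 0.81 ± 0.09 (adjusted p = 1.51e-08) and by 1.29 ± 0.10 (adjusted p = 6.86e-13). No treated library overlapped with DMSO of its day in these 3 comparisons, and at 1 µM on day 1 the difference was 0.12 ± 0.09 (adjusted p = 0.399). The change of the olaparib effect from day 1 to day 5 was -0.93 ± 0.13 at 1 µM (adjusted p = 9.04e-07) and -1.91 ± 0.13 at 5 µM (adjusted p = 1.02e-13).

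BCL2 fell with dose on day 5. DMSO of day 5 held 4.61, 4.2 and 4.17 CPM, olaparib 1 µM 2.15, 2.17 and 1.95 CPM and olaparib 5 µM 0.868, 0.954 and 0.844 CPM, with no overlap between the 3 groups. BCL2 fell by 1.05 ± 0.12 at 1 µM (adjusted p = 1.66e-09) and fell by 2.28 ± 0.13 at 5 µM (adjusted p = 1.70e-17), and the difference between the doses was -1.23 ± 0.15 (adjusted p = 5.15e-09). On day 1 the differences from DMSO were -0.07 ± 0.11 (adjusted p = 0.750) and -0.24 ± 0.11 (adjusted p = 0.0689).

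BCL2L1 rose on day 5 from 97.6, 98.1 and 98.1 CPM in DMSO to 118, 120 and 121 CPM at 1 µM and 163, 172 and 174 CPM at 5 µM. The groups did not overlap, and the rise was 0.29 ± 0.03 (adjusted p = 1.16e-10) and 0.79 ± 0.03 (adjusted p = 4.36e-24). On day 1 BCL2L1 rose by 0.16 ± 0.03 at 5 µM (adjusted p = 1.46e-05). MCL1 on day 5 differed by 0.05 ± 0.03 at 1 µM (adjusted p = 0.0862), which passed with a filter of 10 CPM in 3 libraries (0.06, adjusted p = 0.0245) and in a fit of the compared groups alone (0.06, adjusted p = 0.0294), and by 0.06 ± 0.03 at 5 µM (adjusted p = 0.0507), and the latter passed with DESeq2 (0.06, adjusted p = 0.0258), RLE scaling (0.06, adjusted p = 0.0362), that filter (0.07, adjusted p = 0.0101), the compared groups alone (0.06, adjusted p = 0.0158) and in 8 of 18 fits that left out a library (0.04 to 0.07 over the 18). On day 1 MCL1 fell by 0.09 ± 0.03 at 5 µM (adjusted p = 0.00561), which was lost with total count scaling (-0.04, adjusted p = 0.182), with the filter of 10 CPM (-0.04, adjusted p = 0.116) and without DMSO replicate 1 (-0.07, adjusted p = 0.0536).

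BMF and BIK rose at 5 µM on both days. BMF stood at 5.85, 4.67 and 6.06 CPM in DMSO of day 1 and 8.60, 7.70 and 7.25 CPM with 5 µM olaparib, and on day 5 at 4.21, 4.2 and 4.12 CPM and 12.2, 12.5 and 12 CPM. The rises were 0.51 ± 0.09 (adjusted p = 7.24e-06) and 1.55 ± 0.09 (adjusted p = 3.55e-18), and at 1 µM on day 5 BMF rose by 0.57 ± 0.09 (adjusted p = 3.39e-06). BIK stood at 5.77, 5.66 and 5.07 CPM in DMSO of day 5, 8.72, 8.40 and 8.12 CPM at 1 µM and 13, 12.6 and 13.1 CPM at 5 µM, rising by 0.61 ± 0.08 (adjusted p = 1.96e-08) and 1.23 ± 0.07 (adjusted p = 2.90e-17). BCL2L11 rose on day 5, by 0.16 ± 0.04 at 1 µM (adjusted p = 0.00162) and 0.51 ± 0.04 at 5 µM (adjusted p = 1.56e-13), from 30.3, 30.4 and 30.1 CPM in DMSO to 43.1, 44.6 and 41.5 CPM at 5 µM.

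Over both doses and days BID lay between -0.01 and 0.10 and BAD between -0.11 and 0.03 on the log2 scale, with no call, though BAD at 5 µM on day 5 (-0.11 ± 0.05, adjusted p = 0.0534) passed with total count scaling (-0.19, adjusted p = 0.00091) and without DMSO replicate 2 (-0.14, adjusted p = 0.0239) or olaparib replicate 2 (-0.14, adjusted p = 0.0240). BAD at 1 µM on day 5 (-0.10 ± 0.05, adjusted p = 0.0844) passed with total count scaling (-0.13, adjusted p = 0.0327) and without DMSO replicate 2 (-0.14, adjusted p = 0.0416). BAK1 rose by 0.13 ± 0.04 at 1 µM on day 5 (adjusted p = 0.0133), a call lost without DMSO replicate 1 (0.09, adjusted p = 0.144), and differed by -0.06 ± 0.04 at 5 µM (adjusted p = 0.241), where total count scaling gave -0.14 (adjusted p = 0.00572). On day 5, 3 other BH3-only genes rose at 5 µM, among them BBC3 by 2.45 ± 0.10, and BAX and BOK rose by 1.01 ± 0.04 and 0.83 ± 0.04. Of the 15 p53 targets, 14 rose on day 1 at each dose with none lower, and on day 5 14 rose at 1 µM with none lower and 14 rose and 1 fell at 5 µM, while PMAIP1 fell on day 5. The medians of the p53 targets were 0.71 and 1.84 on day 1 (1 and 5 µM) and 0.94 and 1.87 on day 5, against 0.00, 0.02, 0.00 and -0.01 over all genes, of which 6.30%, 21.6%, 23.4% and 34.4% rose.

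**Figure D4:**
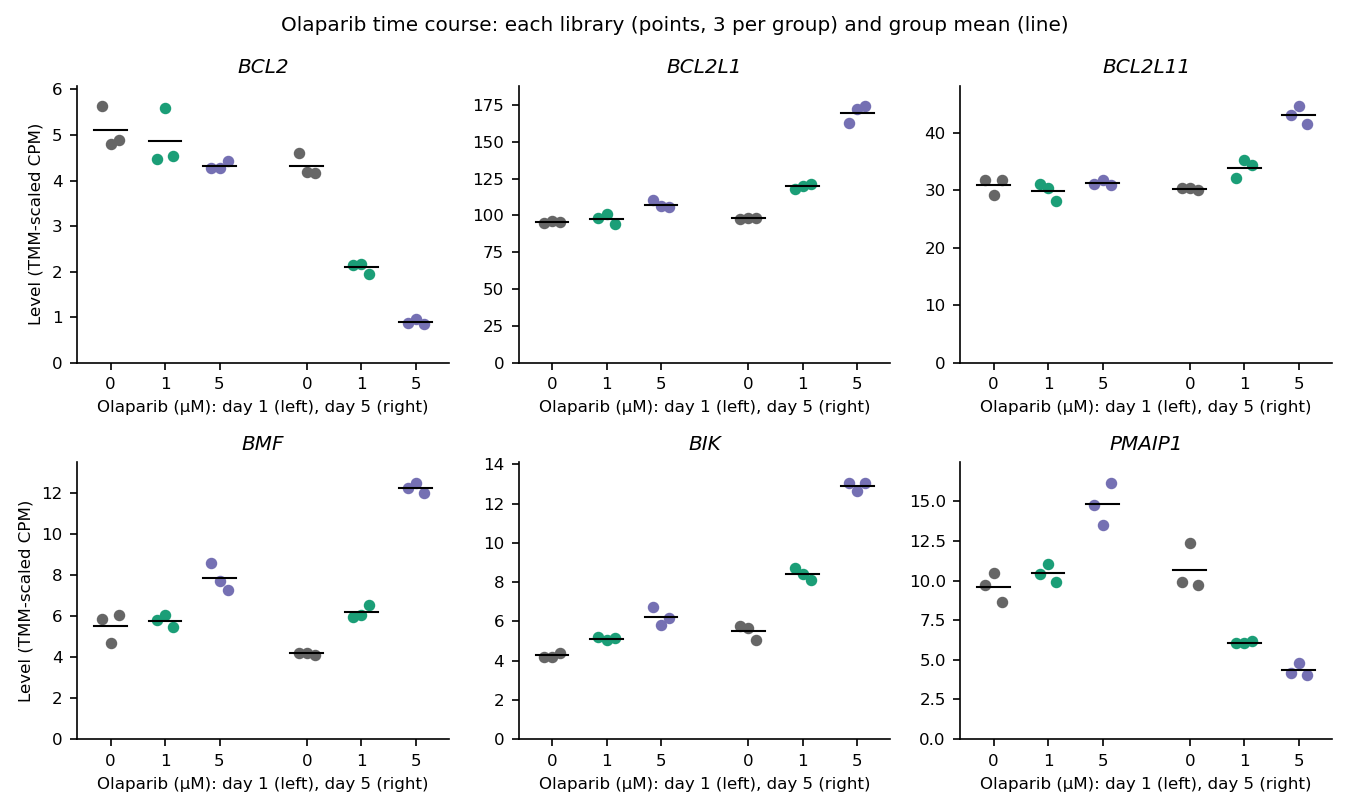
Level of 6 genes in TMM-scaled CPM (vertical axes from 0) against the olaparib dose on day 1 (left of each plot) and day 5 (right), where points are libraries, 3 per group, and lines are group means. PMAIP1 is above DMSO at 5 µM on day 1 (13.5 to 16.2 CPM) and below it on day 5 (4.02 to 4.83 CPM), and BCL2 falls to 0.844 to 0.954 CPM at 5 µM on day 5.

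Between the doses on day 1, 4 genes passed, all higher at 5 µM, against 28.8% of all genes. PMAIP1 was higher by 0.50 ± 0.08 (adjusted p = 1.80e-05), BMF by 0.44 ± 0.09 (adjusted p = 0.000106), BCL2L1 by 0.13 ± 0.03 (adjusted p = 0.000463) and BIK by 0.29 ± 0.08 (adjusted p = 0.0053), the last lost without replicate 1 of 5 µM (0.23, adjusted p = 0.0526). MCL1 (-0.05 ± 0.03, adjusted p = 0.181) passed only without replicate 3 of 5 µM (-0.07, adjusted p = 0.0385). On day 5, 7 passed, 4 higher and 3 lower, against 53.6% of all genes. BCL2L1 was higher at 5 µM by 0.50 ± 0.03 (adjusted p = 1.22e-17), BMF by 0.99 ± 0.08 (adjusted p = 1.21e-12), BIK by 0.62 ± 0.07 (adjusted p = 2.16e-09) and BCL2L11 by 0.34 ± 0.04 (adjusted p = 4.90e-09). The difference was -1.23 for BCL2, given above, -0.49 ± 0.11 for PMAIP1 (adjusted p = 0.000292) and -0.19 ± 0.04 for BAK1 (adjusted p = 0.000446).

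The olaparib effect changed from day 1 to day 5 for 8 genes at 1 µM, 6 of them upward, against 29.8% of all genes, and for 7 genes at 5 µM, 5 of them upward, against 54.9%. At 5 µM the change was -2.04 ± 0.17 for BCL2 (adjusted p = 1.33e-12), 0.63 ± 0.04 for BCL2L1 (adjusted p = 6.96e-16), 1.04 ± 0.12 for BMF (adjusted p = 4.67e-09) and 0.68 ± 0.11 for BIK (adjusted p = 2.39e-06). With total count scaling the 5 µM effect also changed for BAD (-0.25, adjusted p = 0.0028) and BAK1 (-0.20, adjusted p = 0.00697), and the 1 µM effect for BAD (-0.19, adjusted p = 0.0383). These comparisons share the libraries of each day, so the values at both doses are not independent. In DMSO itself, 3 genes differed between the days, against 24.5% of all genes: from day 1 to day 5 MCL1 rose by 0.15 ± 0.03 (adjusted p = 4.54e-05) and BIK by 0.37 ± 0.08 (adjusted p = 0.000912), and BMF fell by 0.40 ± 0.09 (adjusted p = 0.00143).

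Olaparib 1 µM for 5 days was measured in both experiments, with separate DMSO libraries. PMAIP1 fell by 0.79 ± 0.10 in the panel and by 0.81 ± 0.09 in the time course, BIK rose by 0.58 ± 0.10 and 0.61 ± 0.08, BCL2L1 by 0.23 ± 0.03 and 0.29 ± 0.03, and BCL2L11 by 0.22 ± 0.05 and 0.16 ± 0.04. BCL2 and BMF were further apart: -0.43 ± 0.17 against -1.05 ± 0.12, and 0.25 ± 0.10 against 0.57 ± 0.09. In one fit of all 39 libraries, no gene of the 10 differed between the experiments by edgeR, nor any of the 9 to which DESeq2 gave an adjusted p (BCL2 had none), against 1.94% of the 19392 genes tested, and 2 (BCL2 and BMF) had an unadjusted p under 0.05. The difference, panel minus time course, was 0.60 for BCL2 (95% confidence interval 0.19 to 1.01, adjusted p = 0.116) and -0.33 for BMF (-0.61 to -0.05, adjusted p = 0.263), and without panel DMSO replicate C it was 0.76 (adjusted p = 0.0306) and -0.46 (adjusted p = 0.0493). For PMAIP1 the interval was -0.29 to 0.29 and for BIK -0.29 to 0.21.

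Of 10482 genes compared, the protein-coding gene whose 13 group means (log2 CPM, centred within each experiment) were most like those of a member, by Pearson's r, was DIXDC1 for BCL2 (r = 0.986), PAK4 for MCL1 (0.958), NCBP2 for BCL2L11 (0.987) and DNMBP for BMF (0.987). It was SPATA20 for BIK (0.985), PMVK for PMAIP1 (0.967), SMARCE1 for BID (0.980), PREX1 for BAD (0.963) and PAK1IP1 for BAK1 (0.987). The group means share libraries, treatments and depth, each gene is the best of many, and the likeness is a description of these 13 groups. The ranges differ: over the groups BAD spanned 0.38 on the log2 scale and PREX1 6.66, while MCL1 spanned 0.29 and PAK4 0.34.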

How the data were processed

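RNA was sequenced from C4-2B cultures in 39 libraries. Per the labels and the study's methods, the authors trimmed reads with Trim Galore, mapped these to GRCh38 (STAR) and deposited Salmon's estimated counts for each gene as whole numbers, not normalized. Of 63187 IDs, 62666 were paired with a symbol through GENCODE, an earlier release than theirs. Totals per library (26932205 to 49833473) set the precision, which is poorest for BCL2. The labels do not say that replicates were separate cultures grown at different times, so p-values measure the spread between these samples. Same-lettered or same-numbered replicates did not deviate together (median correlation -0.007 in the panel and -0.003 in the time course) and were not paired.

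The test was that of edgeR 4.0.16 (R 4.3.3) after TMM scaling: filterByExpr by group, robust dispersions, 1 quasi-likelihood fit per experiment and Benjamini-Hochberg adjustment over all genes tested, with a threshold of 0.05. Errors of log2 fold changes are standard errors, and those of levels (TMM-scaled CPM) are SDs. In simulated data the fit called 84 of 100 changes of 0.5 (log2) and 95 of 100 changes of 1 for abiraterone against DMSO. For the interaction of abiraterone and olaparib it called 80 and 90 of 100. Changes were placed only in well-counted genes, and the run was set to stop at fewer than 90 calls for changes of 1. The alternatives were other scalings, filters, DESeq2 1.42.0, fits of the compared groups alone, a replicate block, a minimum change and leaving out each library. The 10 members are always named. From each other list, up to 3 genes per comparison with DMSO were eligible, those with the largest change past the threshold and on average 100 or more counts in whichever group was higher, together with CDKN1A, KLK3 and TMPRSS2 as checks of treatment. Markers of other cell types were named outside that rule, after their values were seen. The members and lists were chosen with earlier results of these data known. For likeness of pattern, protein-coding genes tested in both experiments with a mean of 5 CPM or more were compared. The likeness result for BCL2L1 is not reported here.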

Additional observations from a re-analysis of the deposited data

Results flagged for a closer look

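Effects that differed between conditions were read from the interaction tests of edgeR. For the change of the 1 µM olaparib effect between days, 8 of the 10 genes passed, against 29.8% of all genes. For the 5 µM effect 7 passed, against 54.9%. For abiraterone with olaparib 2 passed, against 12.8%, and for enzalutamide with talazoparib 0, against 12.6%. Between the experiments, for olaparib 1 µM on day 5, 0 passed, against 1.94%. The effect of olaparib changed from day 1 to day 5, at 1 µM and at 5 µM in turn, by -0.98 and -2.04 for BCL2, by 0.26 and 0.63 for BCL2L1, by 0.21 and 0.49 for BCL2L11, by 0.50 and 1.04 for BMF, by 0.35 and 0.68 for BIK and by -0.93 and -1.91 for PMAIP1 (log2). For BIK at 1 µM the call was lost without DMSO day 5 replicate 3 (0.29, adjusted p = 0.0577).

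MCL1 changed by 0.094 at 1 µM (adjusted p = 0.0498), which fell short of the threshold in 12 of 18 fits that left out a library (0.07 to 0.11) and with total count scaling (0.05, adjusted p = 0.334), and by 0.14 at 5 µM, where total count scaling gave 0.01 (adjusted p = 0.752). BAK1 changed by 0.18 at 1 µM, no longer past the threshold with total count scaling (0.13, adjusted p = 0.103) or without DMSO day 1 replicate 3 (0.16, adjusted p = 0.0694), olaparib day 1 replicate 1 (0.16, adjusted p = 0.0712) or DMSO day 5 replicate 1 (0.14, adjusted p = 0.103). In the panel, abiraterone with olaparib departed from the sum of both drugs by 0.61 for PMAIP1 and by -0.14 for MCL1. PMAIP1 kept its call in every fit that left out a library.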

How the results depend on the processing

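A required change of at least 0.5 (log2) lowered the counts of members past the threshold most: to 4 with abiraterone, 5 with enzalutamide, 2 with olaparib, 3 with talazoparib and 5 with enzalutamide + talazoparib against DMSO, to 2 and 4 for abiraterone + olaparib against abiraterone and olaparib, and to 1 and 3 for the other pair against enzalutamide and talazoparib. In the time course it left 0 and 3 on day 1 (1 and 5 µM), 4 at 1 µM on day 5, 1 and 4 between the doses on days 1 and 5, 2 for the change of the 1 µM effect and 0 between days in DMSO. For the interaction of abiraterone and olaparib it left 1, PMAIP1. A filter of 10 CPM in 3 libraries also gave 1 there, MCL1, but PMAIP1 was removed by that filter in the panel and not tested. The same filter left BCL2 untested in both experiments. Fits of only the compared groups gave 5 for olaparib in the panel and 0 for olaparib 1 µM on day 1, as did DESeq2 and no filter for the latter, and no filter gave 1 (BMF) for the interaction of enzalutamide and talazoparib. Leaving out each library gave 5 to 8 for olaparib in the panel, 1 to 2 and 0 to 1 for the interactions, 0 to 1 for olaparib 1 µM on day 1 and 0 to 2 for the difference between experiments. With total count scaling MCL1 at 5 against 1 µM on day 5 turned to -0.057 (adjusted p = 0.0395). Over all genes that scaling moved the share of calls that were higher by over 10 points in 13 of 22 comparisons, up to 20.1 points up and 16.3 points down, and in the change of the 5 µM effect between days the median of all genes was -0.15 with it and -0.02 with TMM. With the replicate block, 3 calls of members were lost, BCL2 (-0.42, adjusted p = 0.0534) and BMF (0.25, adjusted p = 0.0559) with olaparib in the panel and MCL1 (0.09, adjusted p = 0.0624) in the change of the 1 µM effect, and no other call changed. Beyond the genes that the filter of 10 CPM removed, the causes of these shifts were not tested.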
